A study of Mus musculus with 8 samples.

Results

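The 9 genes described here encode proteins that define a macrophage or set its lineage, namely *Csf1r*, *Spi1*, *Maf*, *Cebpa*, *Cebpb*, *Irf8*, *Mef2c*, *Adgre1* and *Itgam*. They were chosen by name as the rows of the gene count table that carry these symbols, 9 of 53819 rows, and all 9 were found and passed the filter on low counts. RNA was sequenced from bone marrow-derived macrophages (BMDM) of 4 female Balb/cJ mice aged 8 weeks. Marrow cells of every mouse were grown for 5 days with 25 ng/mL M-CSF, so M-CSF was shared by both groups, and were then given DMSO (vehicle) or 2.5 µM bilirubin for 48 h. Each mouse gave 1 vehicle and 1 bilirubin library, 8 in all, and mice are numbered 1 to 4 below.

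Macrophages arise from marrow progenitors through a small circuit of lineage factors. The ETS factor PU.1, encoded by *Spi1*, acts with C/EBP, IRF, MAF and MEF2 factors at macrophage enhancers and promoters, and it drives *Csf1r*, the receptor for M-CSF that keeps macrophages alive and dividing. *Adgre1* and *Itgam* encode the surface proteins F4/80 and CD11b, by which mouse macrophages are most often sorted and counted. The comparison asks whether these genes differ between macrophages kept with bilirubin and macrophages of the same mouse kept with vehicle.

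The cultures were checked against markers of their label. All 23 listed macrophage markers passed the filter, and their summed level was 44340 to 44870 CPM (counts per 1000000, after TMM scaling for depth) in vehicle libraries and 47890 to 49430 CPM in bilirubin libraries. Within this sum *Lyz2*, which encodes lysozyme, alone went from 19150 ± 248 to 24370 ± 848 CPM (SD, n = 4), while the median log2 fold change of the list was -0.14. Of 10 lymphocyte markers, *Cd3g*, *Nkg7* and *Ncr1* had no count in any library, and the sum of the list stayed between 0.4356 and 1.24 CPM. Libraries held 34142781 to 47071714 counts on genes, and the bilirubin library of mouse 1 was the shallowest. Every one of the 9 genes had at least 1757 counts in every library.

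*Adgre1* and *Itgam* rose and *Cebpa* and *Mef2c* fell in bilirubin cultures, and these 4 genes passed the test. The other 5, *Csf1r*, *Spi1*, *Maf*, *Cebpb* and *Irf8*, did not. Over all 13722 tested genes 7.53% were called at an adjusted p under 0.05, with 4.49% higher and 3.04% lower in bilirubin cultures, against 2 higher and 2 lower among the 9. Every bilirubin library lay above every vehicle library for 2 of the 9 genes, and below for 2, where this held for 5.93% and 4.69% of tested genes. The median log2 fold change was -0.02 over the 9 genes and -0.0018 over all tested genes. In bulk RNA, fewer cells that make a transcript and less of it per cell cannot be told apart.

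**Figure D1:**
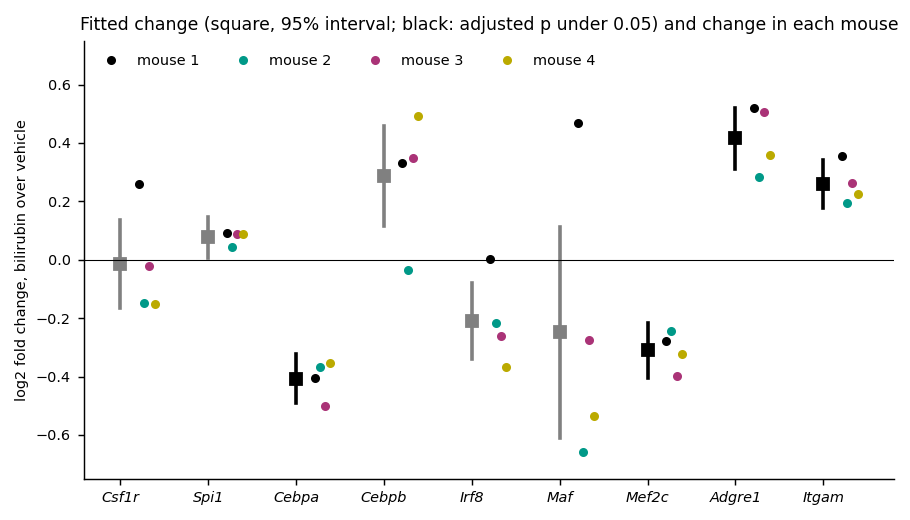
Log2 fold change of bilirubin over vehicle (y axis) for the 9 genes, as the fitted value with its 95% interval (square and line) and as the change in each mouse (dots). Black squares mark *Cebpa*, *Mef2c*, *Adgre1* and *Itgam*, which passed the test, and mouse 1 lies at or above 0 for *Csf1r*, *Irf8* and *Maf*, where the other mice lie below.

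*Csf1r* (ENSMUSG00000024621, chr18:61229714-61266535 on GRCm39, plus strand) encodes the receptor tyrosine kinase for M-CSF and IL-34. With vehicle it measured, from mouse 1 to mouse 4, 1539, 1475, 1406 and 1557 CPM. In bilirubin cultures it measured 1844, 1331, 1386 and 1402 CPM. The groups overlapped, and the bilirubin library of mouse 1 stood above all other libraries. The means were 1494 ± 68.4 and 1490 ± 238 CPM (SD, n = 4). The fitted log2 fold change was -0.02 (SE 0.065, 95% interval -0.165 to 0.135, edgeR adjusted p = 0.935). The sign of this small value turned when mouse 2 or mouse 4 was left out, to 0.03 in each fit (adjusted p = 0.9 and 0.905), and without mouse 1 it was -0.11 (adjusted p = 0.0593).

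*Spi1* (ENSMUSG00000002111, chr2:90912562-90946101, plus strand) encodes PU.1, whose dose steers progenitors toward macrophages. Vehicle cultures had 289.9, 276.2, 283 and 293.1 CPM, and bilirubin cultures of the same mice had 308.6, 284.6, 300.8 and 311.3 CPM. The value was higher with bilirubin in all 4 mice, by 0.04 to 0.09 on the log2 scale, but the groups overlapped. The fitted log2 fold change of 0.08 (SE 0.031, 95% interval 0.0065 to 0.148) did not pass the test (edgeR adjusted p = 0.2). Among the 9 genes *Spi1* therefore had the narrowest interval, and a change of more than 0.148 lay outside it.

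*Cebpa* (ENSMUSG00000034957, chr7:34818718-34821353, plus strand) encodes C/EBPα, a factor of the early myeloid program that also restrains the cell cycle. It measured 228.5, 232.5, 238.3 and 218 CPM in vehicle cultures. It measured 172.6, 180.3, 168.3 and 170.5 CPM in bilirubin cultures. The groups did not overlap, and the lowest vehicle library stood well above the highest bilirubin library. The mean fell from 229.3 ± 8.53 to 172.9 ± 5.22 CPM (SD, n = 4), a log2 fold change of -0.41 (SE 0.037, 95% interval -0.492 to -0.323, edgeR adjusted p = 0.000481). Every mouse showed the drop, between -0.50 and -0.36 on the log2 scale, and *Cebpa* passed the test under all 13 alternative settings.

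*Cebpb* (ENSMUSG00000056501, chr2:167530835-167532338, plus strand) encodes C/EBPβ, the family member most used by mature and activated macrophages. Vehicle cultures had 110.8, 126.4, 140.1 and 120.6 CPM, against 139.4, 123.4, 178.2 and 169.6 CPM with bilirubin. Mice 1, 3 and 4 were higher by 0.33 to 0.49 on the log2 scale, whereas mouse 2 was nearly level at -0.03. The fitted log2 fold change was 0.29 (SE 0.075, 95% interval 0.114 to 0.457) and did not pass the test (edgeR adjusted p = 0.0592). This call depended on the method, since *Cebpb* passed with DESeq2 (adjusted p = 0.00339) and limma-voom (0.0473), and in edgeR when mouse 1 (0.0377) or mouse 2 (0.00724) was left out.

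The start-site windows of the C/EBP pair are shown because their fitted changes differed in sign, although only *Cebpa* passed the test. Each window holds 250 bases before and 50 bases after the RefSeq start. The sequences are RefSeq's (GRCm38.p6 table) and each matched 1 place in GRCm39, whose coordinates are given. Capitals mark the letters TATAAA, searched on both strands and present in 13.6% of 32851 such windows.
Cebpa start window, chr7:34818468-34818767, plus strand: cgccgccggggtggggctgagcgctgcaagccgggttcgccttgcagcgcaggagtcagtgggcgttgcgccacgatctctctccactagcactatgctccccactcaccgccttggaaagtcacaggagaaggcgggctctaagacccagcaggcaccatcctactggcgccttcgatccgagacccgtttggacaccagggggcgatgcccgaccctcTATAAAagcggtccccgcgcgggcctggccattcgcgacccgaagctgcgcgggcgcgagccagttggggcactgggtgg
Cebpb start window, chr2:167530585-167530884, plus strand: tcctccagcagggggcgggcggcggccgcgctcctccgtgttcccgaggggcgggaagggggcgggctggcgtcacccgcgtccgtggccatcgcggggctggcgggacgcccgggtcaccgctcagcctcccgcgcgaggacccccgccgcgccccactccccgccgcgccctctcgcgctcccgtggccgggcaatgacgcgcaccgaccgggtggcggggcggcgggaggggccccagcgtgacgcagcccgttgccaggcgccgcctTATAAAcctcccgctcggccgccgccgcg
In *Cebpa* the TATAAA letters begin 30 bases before the start, and in *Cebpb* they begin 21 bases after it. Both windows are rich in CpG, with 29 and 50 CpG dinucleotides against a median of 7 over all windows. Neither holds the PU.1 core GAGGAA (28.3% of windows) or the C/EBP letters TTGCNNAA (10.8% of windows) on either strand, which says only that these letters are not in these 300 bases.

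*Irf8* (ENSMUSG00000041515, chr8:121463096-121485659, plus strand) encodes an interferon regulatory factor that pairs with PU.1 in the monocyte and dendritic cell lineages. Vehicle cultures were tight at 133.9, 136.6, 134.5 and 132.9 CPM. Bilirubin cultures had 134.3, 117.5, 112.3 and 103.1 CPM. Mice 2, 3 and 4 were lower by 0.22 to 0.37 on the log2 scale and mouse 1 was level at 0.0037, so the SD went from 1.57 CPM with vehicle to 13.1 CPM with bilirubin. The fitted log2 fold change of -0.21 (SE 0.057, 95% interval -0.34 to -0.0794) did not pass the test (edgeR adjusted p = 0.0674). It passed with DESeq2 (adjusted p = 0.0174) and in edgeR without mouse 1, at -0.28 (adjusted p = 0.000481).

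*Maf* (ENSMUSG00000055435, chr8:116409632-116434579, minus strand) encodes c-MAF, a large MAF factor of resident and alternatively activated macrophages. Vehicle cultures had 258.8, 224.6, 217.8 and 257.2 CPM, and bilirubin cultures had 358.3, 142.3, 180 and 177.4 CPM. Of the 9 genes it varied most between mice, with the highest level of all libraries in the bilirubin culture of mouse 1 and the 3 lowest in those of mice 2, 3 and 4. The log2 change was 0.47 in mouse 1 and -0.66, -0.28 and -0.54 in mice 2, 3 and 4. Over all 4 mice the fitted value was -0.25 (SE 0.157, 95% interval -0.61 to 0.112, edgeR adjusted p = 0.436). Without mouse 1 it was -0.49 (adjusted p = 0.000211).

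Leaving out mouse 1 raised the number of called genes among the 9 from 4 to 7, adding *Maf*, *Cebpb* and *Irf8*, while the share called over all genes went from 7.53% to 13.9%. Values that moved with this mouse included depth, since its vehicle library was the deepest (47071714 counts) and its bilirubin library the shallowest (34142781 counts). *Irf7*, an interferon-induced member of the IRF family, was also higher by 2.01 on the log2 scale in mouse 1 and by 0.01 to 0.77 in the other mice. Their part in the values of mouse 1 was not tested.

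**Figure D2:**
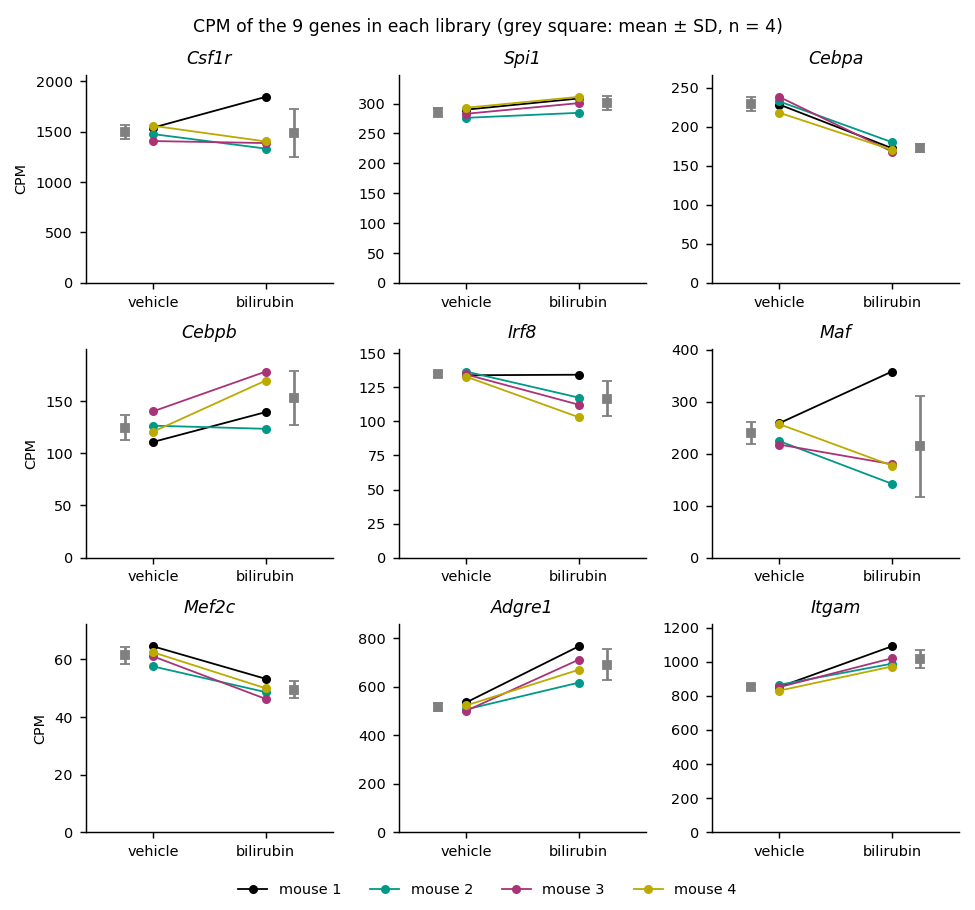
CPM (y axes, from 0) of each of the 9 genes in the vehicle and bilirubin library of every mouse, joined by a line per mouse, with the mean ± SD of each group (grey square, n = 4). All 4 lines fall for *Cebpa* and *Mef2c* and climb for *Spi1*, *Adgre1* and *Itgam*, whereas the line of mouse 1 climbs for *Csf1r* and *Maf* against the others.

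*Mef2c* (ENSMUSG00000005583, chr13:83652064-83815555, plus strand) encodes a MADS-box factor that favours monocytic over granulocytic fate. It measured 64.53, 57.56, 61.05 and 62.46 CPM in vehicle cultures and 53.26, 48.64, 46.29 and 49.97 CPM in bilirubin cultures. The groups did not overlap in CPM. The mean fell from 61.4 ± 2.93 to 49.5 ± 2.91 CPM (SD, n = 4), a log2 fold change of -0.31 (SE 0.041, 95% interval -0.405 to -0.216, edgeR adjusted p = 0.00283), and the change was between -0.40 and -0.24 in the 4 mice. The call was lost under 1 of 13 alternatives, an offset for the mean effective length of the gene's transcripts in each library, where the value was -0.21 (adjusted p = 0.109).

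*Adgre1* (ENSMUSG00000004730, chr17:57665573-57790527, plus strand) encodes F4/80, an adhesion G protein-coupled receptor. It measured 535.9, 507.2, 501.6 and 523.5 CPM in vehicle cultures. It measured 767.5, 617.7, 712.3 and 670.8 CPM in bilirubin cultures. Every bilirubin library lay above every vehicle library. The mean rose from 517.1 ± 15.7 to 692.1 ± 63.4 CPM (SD, n = 4), a log2 fold change of 0.42 (SE 0.045, 95% interval 0.312 to 0.521, edgeR adjusted p = 0.00114), with 0.28 to 0.52 in single mice. This was the largest rise among the 9 genes.

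*Itgam* (ENSMUSG00000030786, chr7:127661808-127717753, plus strand) encodes CD11b, the alpha chain of complement receptor Mac-1. Vehicle cultures had 851.6, 864.6, 850.8 and 830.3 CPM and bilirubin cultures had 1090, 988.3, 1020 and 971.7 CPM, again without overlap. The mean rose from 849.3 ± 14.2 to 1018 ± 52.5 CPM (SD, n = 4), a log2 fold change of 0.26 (SE 0.036, 95% interval 0.177 to 0.343, edgeR adjusted p = 0.00356). The rise was 0.19 to 0.36 in single mice. *Adgre1* and *Itgam* passed the test under all 13 alternative settings.

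The start window of *Itgam* is shown because it carries the PU.1 core, the letters GAGGAA or TTCCTC on the opposite strand (capitals), at 3 places. It runs 250 bases before to 50 bases after the RefSeq start and comes from the same RefSeq table.
Itgam start window, chr7:127661562-127661861, plus strand: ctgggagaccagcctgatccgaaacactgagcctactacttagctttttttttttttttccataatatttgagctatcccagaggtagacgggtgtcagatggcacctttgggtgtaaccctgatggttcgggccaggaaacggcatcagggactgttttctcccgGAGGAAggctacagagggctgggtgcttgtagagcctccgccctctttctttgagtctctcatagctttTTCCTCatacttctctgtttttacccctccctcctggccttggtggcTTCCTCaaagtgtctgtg
The matches begin 84 and 15 bases before the start and 32 bases after it. The window holds no TATAAA, 6 CpG dinucleotides and 50.3% G and C, against 67.3% in *Cebpa* and 80.7% in *Cebpb*. Of the 5 genes with a window in the table, *Mef2c* also held the PU.1 core, once in each of 2 of its 3 windows, while *Irf8*, with 2 windows, did not. The table had none for *Csf1r*, *Spi1*, *Maf* and *Adgre1*. A match of 6 letters is a description and not a bound site.

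Levels were compared between genes as TPM (transcripts per 1000000 transcripts), which divides by transcript length. In vehicle cultures *Csf1r* was highest at 816 ± 35 TPM and *Mef2c* lowest at 31.5 ± 3.31 TPM (SD, n = 4). Between them came *Spi1* (346.1 TPM), *Adgre1* (332.3 TPM), *Itgam* (297.7 TPM), *Cebpa* (145.4 TPM), *Cebpb* (145.1 TPM), *Irf8* (80.7 TPM) and *Maf* (70 TPM). *Spi1* was above *Adgre1* in 3 of 4 vehicle libraries and *Cebpa* above *Cebpb* in 1 of 4, so the order of these neighbours was not set beyond their spread. With bilirubin *Adgre1* came second at 434.9 ± 56 TPM, above *Spi1* (350.4 TPM) in 4 of 4 libraries, and *Spi1* and *Itgam* (348.8 TPM) were level. *Cebpb* (172.4 TPM) was above *Cebpa* (106.3 TPM) in 4 of 4 bilirubin libraries. For *Mef2c*, whose groups did not overlap in CPM, mouse 1 with vehicle (28.01 TPM) lay below mouse 4 with bilirubin (28.26 TPM).

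**Figure D3:**
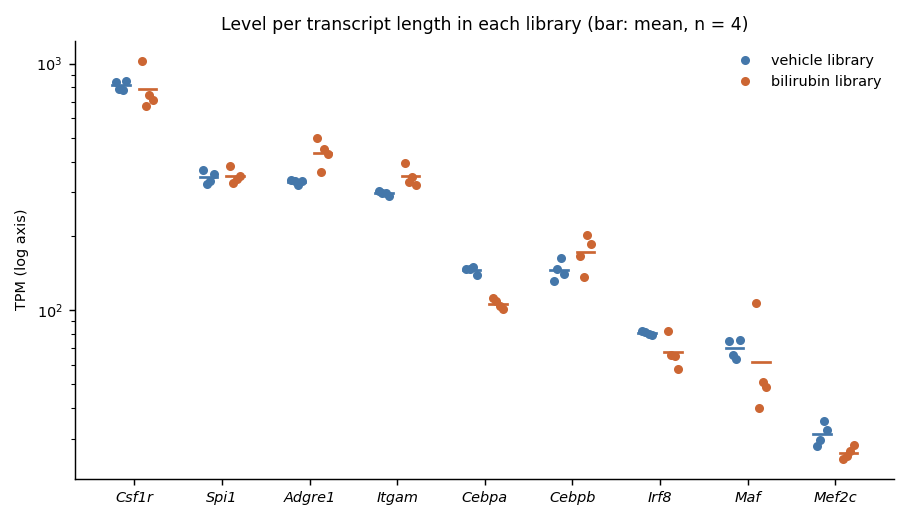
TPM (log axis) of the 9 genes in each vehicle and bilirubin library, ordered by the vehicle mean, with a bar at each mean (n = 4). *Cebpa* and *Cebpb* share a level near 145 TPM with vehicle and part with bilirubin, and *Maf* spreads most widely among bilirubin libraries.

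The ratio of 2 genes within a library does not depend on scaling between libraries. *Cebpb* over *Cebpa*, in TPM, was 0.894, 1, 1.08 and 1.02 with vehicle (mice 1 to 4) and 1.49, 1.26, 1.94 and 1.83 with bilirubin, higher in every mouse and without overlap. *Cebpa* over *Spi1* was 0.397, 0.452, 0.449 and 0.388 with vehicle and 0.29, 0.333, 0.304 and 0.29 with bilirubin, lower in every mouse. *Irf8* over *Spi1* was lower in every mouse too, by 0.06 to 0.43 on the log2 scale. *Itgam* over *Adgre1* changed by -0.26 to 0.02 and *Maf* over *Cebpb* by -1.03 to 0.16, with 1 of 4 mice against the rest in both. With 4 mice an exact two-sided sign-flip test has 16 patterns and its smallest p is 2 of these 16, above the threshold, so the ratios stand as values.

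The transcripts behind each gene were read from the transcript estimates. *Cebpb* has a single listed transcript, Cebpa-201 held 99.8% and 99.3% of its gene in vehicle and bilirubin cultures, and the 9-exon transcript of *Irf8* held 94.9% and 96.1%. *Spi1* was split between a 5-exon transcript (61.2% and 61.9%) and a short 4-exon model (28.4% and 27.9%). Maf-202, with 1 exon, held 72.7% and 71.7%, and Maf-201, with 3 exons, held 27.3% and 28.3%. The 22-exon transcript of *Adgre1* held 67.4% and 65.6%, a short 4-exon model 19.9% and 21%, and a 23-exon transcript 10.7% and 12.1%. The shares of these genes moved by less than 2 percentage points in mean. *Mef2c* was spread over 31 listed transcripts, and the estimates of single ones were unstable, for example Mef2c-216 from 0 to 29.3% among vehicle libraries.

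None of 40 tested transcripts of the 9 genes was called by edgeR with the mouse in the model, where 14 of 38206 transcripts were called over all genes (0.0366%), although 10 of the 40 had an unadjusted p under 0.05. The lowest adjusted p-values were 0.0775 for Cebpa-201, at a log2 fold change of -0.42, and 0.0865 for Itgam-203, at 0.26. With treatment alone in the model these same 2 transcripts were called (adjusted p = 0.0068 and 0.0314). No other tool was run on transcripts.

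**Figure D4:**
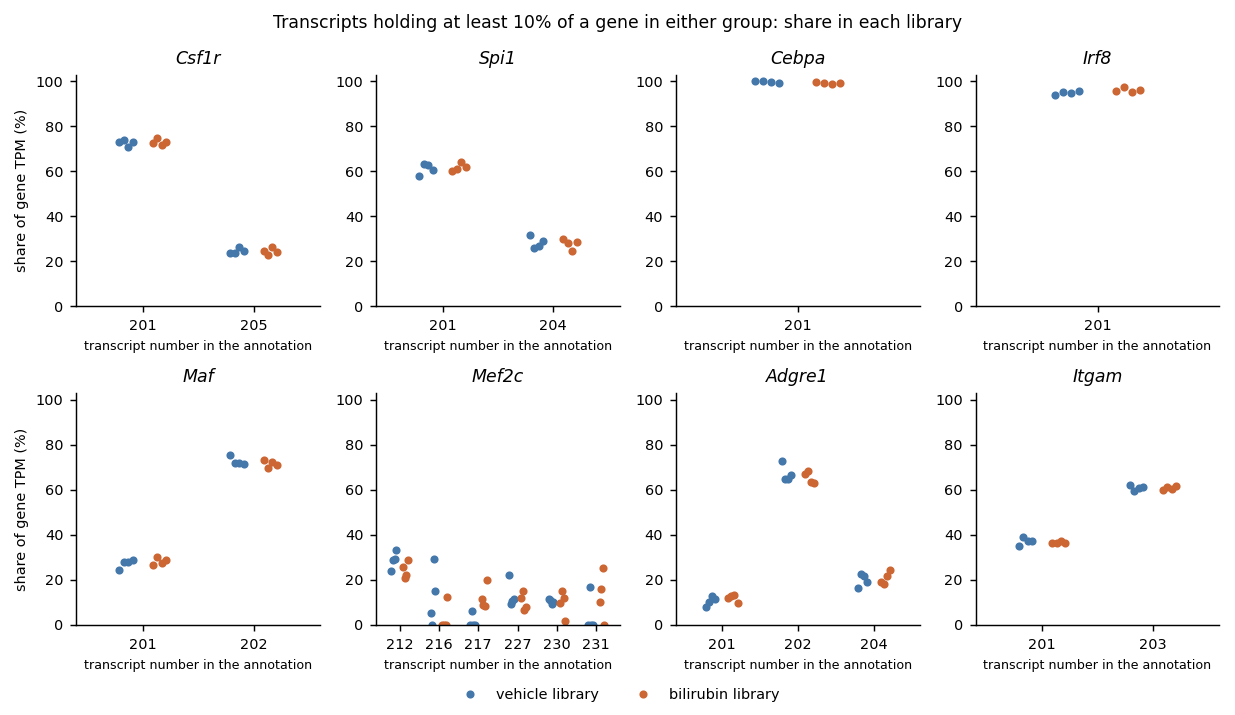
Share of a gene's TPM (y axis, %) held by each transcript with at least 10% in either group, in every vehicle and bilirubin library. *Cebpb*, with 1 transcript, is left out. Points of both groups lie together for the other genes except *Mef2c*, whose 6 transcripts scatter between libraries.

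*Itgam* was carried by a pair of 30-exon transcripts that, in the GENCODE annotation, differ only at the start of exon 14 on chromosome 7. Their junction is shown because the pair held nearly all of the gene. The exon begins at base 127700806 in Itgam-201 and at base 127700809 in Itgam-203 (GRCm39), and both end at base 127701018. The lines below give 12 bases of exon 13, the 3 bases present in Itgam-201 only (capitals) and 12 further bases of exon 14, from the GENCODE transcripts.
Itgam-201 junction: ttgcctcgagggCAGagggcacggtgg
Itgam-203 junction: ttgcctcgagggagggcacggtgg
The 3 bases lengthen the coding sequence from 1153 to 1154 codons. Itgam-203, the shorter form, held 61% ± 1.2 of the gene in vehicle and 60.8% ± 0.795 in bilirubin cultures, and Itgam-201 held 37.2% ± 1.63 and 36.7% ± 0.501 (SD, n = 4). The fitted log2 fold changes were 0.26 (SE 0.028) and 0.25 (SE 0.058). Salmon's own models had 4649 bases for Itgam-203 and 4682 bases for Itgam-201. These lengths differ by more than the 3 bases shown, so the shares do not measure this splice choice alone.

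The families of the 9 genes were described next, from lists of relatives and partners. Of 8 tested CEBP family genes and partners, *Cebpa* was the only one called, and without mouse 1 *Cebpb* and *Cebpg* were called too. *Cebpd*, an acute-phase member, had a log2 fold change of 0.37 (adjusted p = 0.217) and *Cebpe*, a granulocyte factor, 0.25 (adjusted p = 0.31), while *Trib1*, a pseudokinase that promotes C/EBPα degradation, was at 0.01 (adjusted p = 0.984). Of 8 tested IRF genes edgeR, limma-voom and limma-trend called 0, DESeq2 called *Irf8*, edgeR without mouse 1 called *Irf7* and *Irf8*, and 3 had an unadjusted p under 0.05 in edgeR. *Irf5*, a factor of inflammatory macrophages, was steady at 177.1 ± 8.57 and 182.6 ± 6.64 CPM (log2 fold change 0.04, 95% interval -0.0285 to 0.118). *Irf7* was at 0.85 with an adjusted p of 0.0989.

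Of 12 tested ETS genes only *Spic*, the PU.1 relative of heme-handling red pulp macrophages, was called, with *Etv3* and *Fli1* added without mouse 1. It rose from 1.39 ± 0.178 to 3.67 ± 0.617 CPM (SD, n = 4), a log2 fold change of 1.39 (edgeR adjusted p = 0.00191) that passed under all 13 alternatives. It remained scarce, with at most 175 counts in a library. The small MAF gene *Mafg*, a partner in NRF2 dimers, was level at 171 ± 5.5 and 170.8 ± 2.03 CPM.

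The MEF2 list moved down in all its calls, with 3 of 8 tested genes lower, *Mef2c* itself among them, none higher and a median of -0.14. Over all genes 3.04% were lower. *Mef2a* fell from 408.7 ± 13.9 to 311 ± 41.5 CPM (log2 fold change -0.40, adjusted p = 0.00439), and *Hdac9*, a class IIa deacetylase that binds MEF2 factors, fell from 5.62 ± 0.444 to 3.34 ± 0.536 CPM (-0.76, adjusted p = 0.00591). Both calls were lost without mouse 3 (adjusted p = 0.0531 and 0.0589), which left *Mef2c* as the only call of the list. *Mef2d* was at -0.13 (adjusted p = 0.172), and *Hdac5* was at 117.6 CPM in both groups.

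Of 6 tested colony-stimulating factor and receptor genes 3 rose. The chains of the GM-CSF receptor were 2 of these, *Csf2ra* from 247.2 ± 12.6 to 282.9 ± 4.3 CPM (log2 fold change 0.20, adjusted p = 0.0112) and *Csf2rb* from 215.3 ± 23.4 to 334.2 ± 32.1 CPM (0.64, adjusted p = 0.000214). *Csf2ra* was not called without mouse 2 or mouse 4 (adjusted p = 0.0984 in each). The third, *Csf2rb2*, was called at 0.52 (adjusted p = 0.00295), but it is a near copy of *Csf2rb* and their reads may be shared. The G-CSF receptor *Csf3r* was at -0.06 (adjusted p = 0.854) and the ligand gene *Csf1* at 0.07 (adjusted p = 0.894). Of 30 tested genes of Csf1r signalling 6 rose and 2 fell, with a median of -0.01 (8 and 5 without mouse 1, 4 and 1 without mouse 3 or mouse 4). Calls over all genes moved too, from 1033 to 1910 without mouse 1, 377 without mouse 3 and 441 without mouse 4. In this list the Src family kinase *Fgr* had the largest change (1.72, adjusted p = 1.7e-05).

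Around the surface markers, the beta2 integrin list had 3 of 7 tested genes higher, *Itgam* itself among them, and a median of 0.25 (4 higher and 1 lower without mouse 1). Over all genes 4.49% were higher, and the share called in either direction went from 7.53% to 13.9% without mouse 1. *Itgb2*, the beta chain that pairs with CD11b, rose from 844.1 ± 41.1 to 1099 ± 98 CPM (log2 fold change 0.38, adjusted p = 0.00194), and *Icam1*, a ligand of beta2 integrins, rose from 51.5 ± 3.38 to 87.8 ± 10.5 CPM (0.77, adjusted p = 0.000398). The alpha chains *Itgal* (-0.05, adjusted p = 0.764) and *Itgax* (0.25, adjusted p = 0.151) did not pass. *Adgre5*, which encodes CD97, moved against *Adgre1* and fell from 123.7 ± 5.68 to 103.4 ± 11.7 CPM (-0.26, adjusted p = 0.00865), a call that was lost without mouse 2, 3 or 4 (adjusted p up to 0.0728).

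**Figure D5:**
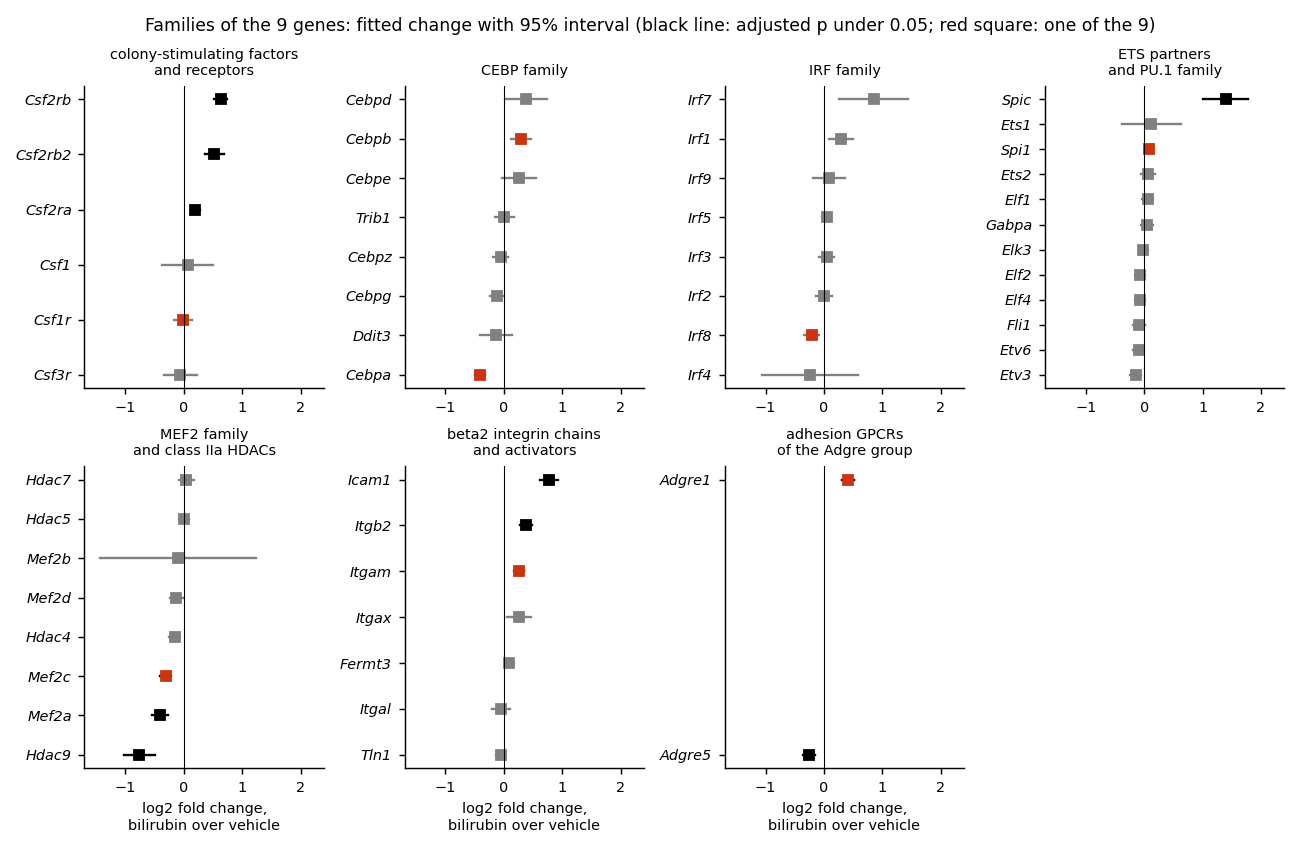
Fitted log2 fold change of bilirubin over vehicle (x axis) with its 95% interval for the tested genes of 7 lists related to the 9 genes. Red squares are members of the 9, and black lines mark an adjusted p under 0.05. Among the genes plotted, from the colony-stimulating factor, CEBP, IRF, ETS, MEF2, beta2 integrin and Adgre lists, the called genes run from *Hdac9* at -0.76 to *Spic* at 1.39.

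Other transcription factors of macrophages were called in both directions, 4 of 28 tested higher and 4 lower, with a median of -0.03. These counts depended on single mice, with 5 higher and 6 lower without mouse 1 and 4 and 2 without mouse 2. Without mouse 3 they were 1 and 1, and without mouse 4 they were 1 and 2. Calls over all genes moved too, from 1033 to 1910, 634, 377 and 441 without mouse 1, 2, 3 and 4. *Nr1h3*, the oxysterol receptor LXRα, rose (0.42, adjusted p = 0.00314), as did *Klf4* (0.30, adjusted p = 0.00773). *Runx2* fell (-0.51, adjusted p = 0.00379), as did *Bhlhe40* (-0.35, adjusted p = 0.00665). Of these 4, only *Nr1h3* passed under all 13 alternatives. *Klf4* was lost without mouse 3 or 4, *Bhlhe40* without mouse 3 and *Runx2* with the length offset, among others. *Tfec* (0.28) and *Nfe2l2* (0.19) were the other rises and *Id2* (-0.23) and *Rxra* (-0.20) the other falls, and all 4 were lost without mouse 3 or mouse 4. Among the 23 macrophage markers 3 rose and 4 fell. The 3 rises were called whichever mouse was left out, but the number of falls was 10 without mouse 1, 2 without mouse 2 and 1, *Cx3cr1*, without mouse 3 or mouse 4. *Lyz2* rose by 0.35 (adjusted p = 0.000513) and the fractalkine receptor *Cx3cr1* fell by 1.02 on the log2 scale (adjusted p = 5e-05).

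Markers of other cells that share some of the 9 genes were read beside them. Of 14 neutrophil markers, which matter for *Itgam* and *Cebpb*, 6 passed the filter. These 6 summed to 170.1 to 195.1 CPM with vehicle and 196.1 to 224.3 CPM with bilirubin. *S100a8* was the 1 of 6 tested that was called, at 1.07 (adjusted p = 0.000334). *Mmp8*, which was not called, made 142.7 ± 11.9 and 162.6 ± 11.7 CPM of these sums. *Ly6g* had at most 3 counts in any library and *Retnlg* none. Of 9 osteoclast markers, the 7 tested summed to 320.3 to 335.5 CPM and 354.1 to 400.7 CPM. *Ctsk* (1.41), *Acp5* (1.29) and *Dcstamp* (1.83) were called, while *Calcr* and *Oscar* had no count. Of 10 monocyte markers, the 6 tested summed to 213.4 to 241.4 and 175.7 to 295.6 CPM. Among them *Vcan* was called at 2.26 and *F13a1* at -0.99. *F13a1* was lost without mouse 2, 3 or 4, and *Dcstamp* without mouse 3. Of 10 dendritic cell markers, which matter for *Irf8*, the 2 that passed the filter, *Clec10a* and *Batf3*, summed to at most 6.18 CPM. Of 3 tested progenitor markers *Cd34* was called, at -0.70 (adjusted p = 0.0195), and was lost without mouse 2, 3 or 4. The part of such cells in the values of the 9 genes was not tested.

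Each of the 9 genes was matched to the gene whose log2 CPM ran closest to its own over the 8 libraries, among tested genes averaging 3 or more in log2 CPM. The closest were *Oxct1* for *Csf1r* (Pearson r = 0.994), *Clec12a* for *Spi1* (0.989), *Rasgrp3* for *Cebpa* (0.987), *Nol6* for *Cebpb* (0.971), *Tex261* for *Irf8* (0.997), *Grk2* for *Maf* (0.997), *Apoe* for *Mef2c* (0.985), *Rassf4* for *Adgre1* (0.996) and *Arap1* for *Itgam* (0.996). The 8 points share 4 mice and 2 treatments, and each value is the highest of many genes, so they are given as a description. *Oxct1*, *Grk2*, *Nol6* and *Tex261* were not called themselves, while the partners of *Spi1*, *Cebpa*, *Mef2c*, *Adgre1* and *Itgam* were.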

How the data were processed

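BMDM RNA was sequenced from poly(A)-selected libraries. According to the submitters' processing notes and the paper's methods, the authors made reads with bcl2fastq 2.20.0.422, trimmed them with Trim Galore 0.6.7 and Cutadapt 3.4, aligned them with STAR 2.7.9a to GRCm39 and quantified them with Salmon 1.10.1. The deposited gene table holds Salmon's estimated (expected) counts, 88.45% of them whole numbers, and the deposited transcript files hold estimated counts and TPM for 142434 transcripts. The gene counts are not scaled for depth.

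The estimated counts were rounded to whole numbers and fitted with edgeR 4.0.16 under R 4.3.3 (TMM scaling, filterByExpr with at least 10 counts and 15 in total, quasi-likelihood test, mouse and treatment in the model). Benjamini-Hochberg adjustment ran over all tested genes, with a threshold of 0.05, and "called" means below it. Standard errors and 95% intervals were derived from the quasi-likelihood F values. The pairing comes from the culture numbers in the labels. The paper describes 4 mice and a mouse identifier as covariate, and cultures with the same number were taken as the same mouse. The cultures of mice 1 to 4 correlated with the other culture of their mouse at 0.108, 0.134, 0.108 and -0.0053 in their deviations from group means. The highest correlation of each vehicle culture with a bilirubin culture of another mouse was -0.0324, -0.0222, 0.0751 and 0.0619. For mouse 4 this was above the value within the mouse. DESeq2 1.42.0 and limma 3.58.1 were alternatives. A prior count of 2 was added for log2 CPM. The procedure was tested on simulated data. Depth was 34142781 to 47071714 counts. Gene positions come from GENCODE M39 on GRCm39. Salmon's lengths differ from GENCODE M39 for some transcripts.

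The 9 genes, the gene lists and the tests were chosen with earlier results of these data known. The text names all 9 genes, the measured genes of their families, up to 4 called genes with the largest change from each other list, transcripts with at least 10% of a gene, and the most alike gene of each. Some genes of these lists are not reported here.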

Additional observations from a re-analysis of the deposited data

Results flagged for a closer look

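The *Csf1r* level of 1844 CPM in the bilirubin culture of mouse 1 stood apart from the other 3 bilirubin cultures, which lay between 1331 and 1402 CPM. The gap to the nearest culture was 0.861 of the range of the group, above Dixon's 95% critical value for 4 samples. It was the only one of 18 groups tested (9 genes, both treatments), and chance alone flags about 1 group in 20. Without mouse 1 the log2 fold change of *Csf1r* was -0.11 (edgeR adjusted p = 0.0593).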

How the results depend on the processing

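*Cebpa*, *Adgre1* and *Itgam* passed under all 13 alternatives and *Mef2c* under 12, the exception being the transcript length offset (-0.21, adjusted p = 0.109). The number of the 9 genes called was 4, and 7 without the filter on low counts, where *Maf*, *Cebpb* and *Irf8* were added. DESeq2 called 6 of the 9, limma-voom 5 and the fit with the length offset 3. Leaving out 1 mouse gave 4 to 7 calls among the 9 and 377 to 1910 over all genes, against 1033, with the most without mouse 1 and the fewest without mouse 3. Over all genes, 1692 were called without the filter and 578 with the length offset. Without mouse 2 and without mouse 4, *Csf1r* turned to 0.0288 and 0.0305, in a range from -0.11 (without mouse 1) to 0.0305. Scaling by library size alone called 527 genes higher and 556 lower, against 616 and 417 with TMM, and kept the same number of calls, 4, among the 9, but moved the median of all genes to -0.0282. Treatment alone, without the pairing by mouse (no replicate block), called 686 genes over all, 4 of the 9 and 2 of their transcripts, against 0 transcripts in the paired fit; leaving out 1 mouse kept the transcripts at 0. The cause of these differences was not tested. All 9 genes had at least 1757 counts a library.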
